A study of Mus musculus with 2 samples.

Results

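The cell cycle and DNA replication genes were followed in macrophages cultured without (NT, nontreated) or with interleukin-4 (IL-4). These were 45 genes fixed by name, out of 15623 genes listed in either library, and they comprised cyclins and their kinases, the proteins that load and fire replication origins, the enzymes that supply deoxynucleotides, and the kinases and checkpoint proteins of mitosis. All 45 were listed in the IL-4 library and 44 in the NT library, where Cdc25c was at 0. The cells were peritoneal macrophages elicited with thioglycolate in C57BL/6 mice of wild-type genotype, aged 6 to 8 weeks by the methods of the study, given 4% thioglycolate 4 to 5 days before lavage. After 4 h of adherence they were starved in medium with 0.5% serum, and the stimulated cells then received mouse IL-4 for 6 h. Both groups were wild type and differed by IL-4 alone per the labels, which do not give the number of mice behind each library. One label field calls the tissue bone marrow, but another names peritoneal macrophages. Each group held 1 library, so no difference was checked against the spread between replicates.

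Cells enter the cycle when D-type cyclins with Cdk4 and Cdk6, and then cyclin E with Cdk2, phosphorylate the Rb protein and release E2F transcription factors, while the inhibitors p27 and p18 restrain these kinases. E2F factors drive the genes for origin licensing, in which Cdc6 and Cdt1 load the hexamer of Mcm2 to Mcm7, and for nucleotide supply. Genes of G2 and mitosis, such as cyclin B, Cdk1 and Plk1, are held down in resting cells by the DREAM complex and induced later by B-Myb and Foxm1. IL-4 is known to induce local proliferation of resident macrophages in body cavities, whereas thioglycolate-elicited macrophages are largely recruited from blood monocytes.

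The NT and IL-4 libraries held 11035641 and 11250099 expected counts, the reads assigned to each gene by estimation. Of 9 macrophage markers, Lyz2 was the most abundant at 11289 FPKM in NT and 10811 FPKM in IL-4. FPKM is the abundance per length of transcript and scaled for depth. The lowest was Fcgr1 at 6.59 and 5.02 FPKM. Csf1r rose from 6236 to 11896 counts and Cd14 fell from 1219 to 591, both called by the rule given below. The other 7 were not called. Summed, the 9 had 193564 counts in NT and 199683 in IL-4. The sums for other cell types were lower, and that of 5 fibroblast markers was 2016 in NT and 1735 in IL-4. Of these, Col1a1 had 723 and 573 counts. In NT and IL-4 the counts were 106 and 97 for 5 B cell markers, 31.7 and 30.2 for 6 T cell markers, 109 and 71 for 5 neutrophil markers, and 53 and 28 for 5 eosinophil markers. They were 69 and 50 for 5 mast cell markers, 146 and 167 for 5 mesothelial markers, and 92 and 153 for 4 markers of large resident peritoneal macrophages, of which Alox15 had 4 and 29. The 5 markers of marrow progenitors summed to 33 and 65, nearly all of it Cd34, with Mpo not listed and Elane, Prtn3 and Ctsg at 1 count or less. Trac, S100a9, Ly6g, Retnlg, Epx, Ear1 and Ccr3 were not listed in either library. The part of any such cells in the results below was not tested, and in bulk RNA fewer cycling cells cannot be told apart from less RNA of these genes per cell.

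Few of the 45 genes passed the threshold for a difference between the libraries, and the intervals of 18 of them lay wholly within it. Upon IL-4 stimulation 3 were called higher (Mcm2, Ccnb1 and Cdc25c), 3 were called lower (Cdk6, E2f2 and Cdc25b) and 39 were not called. Calls required a log2 ratio (IL-4 over NT, counts scaled to the library totals) of 0.75 or more in size, an exact two-sided binomial p up to 0.05 and a Benjamini-Hochberg (BH) adjusted p up to 0.5. The thresholds are those of the study. This test sets the reads of the libraries against each other and says nothing of the spread between animals. Over all 15593 genes tested, 10.4% were called (4.07% higher and 6.28% lower), so the 13.3% of the cell cycle genes was near the background. Their median log2 ratio was 0.12, against -0.03 over all genes tested. Of the 45 ratios, 27 (60%) were above 0, against 45.3% over all genes tested. With the NT count of Cdc25c set to a floor of 3 counts the median was also 0.12. Together the 45 genes made up 0.0882% of all NT counts and 0.0904% of all IL-4 counts. The log2 ratio of their summed counts was 0.04, with a 95% interval of -0.00378 to 0.0767 that included 0. Intervals here are exact Clopper-Pearson intervals that cover counting error only, and reads copied by PCR are not independent molecules. Of the called members, only Cdk6 had an interval wholly beyond the threshold.

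**Figure D1:**
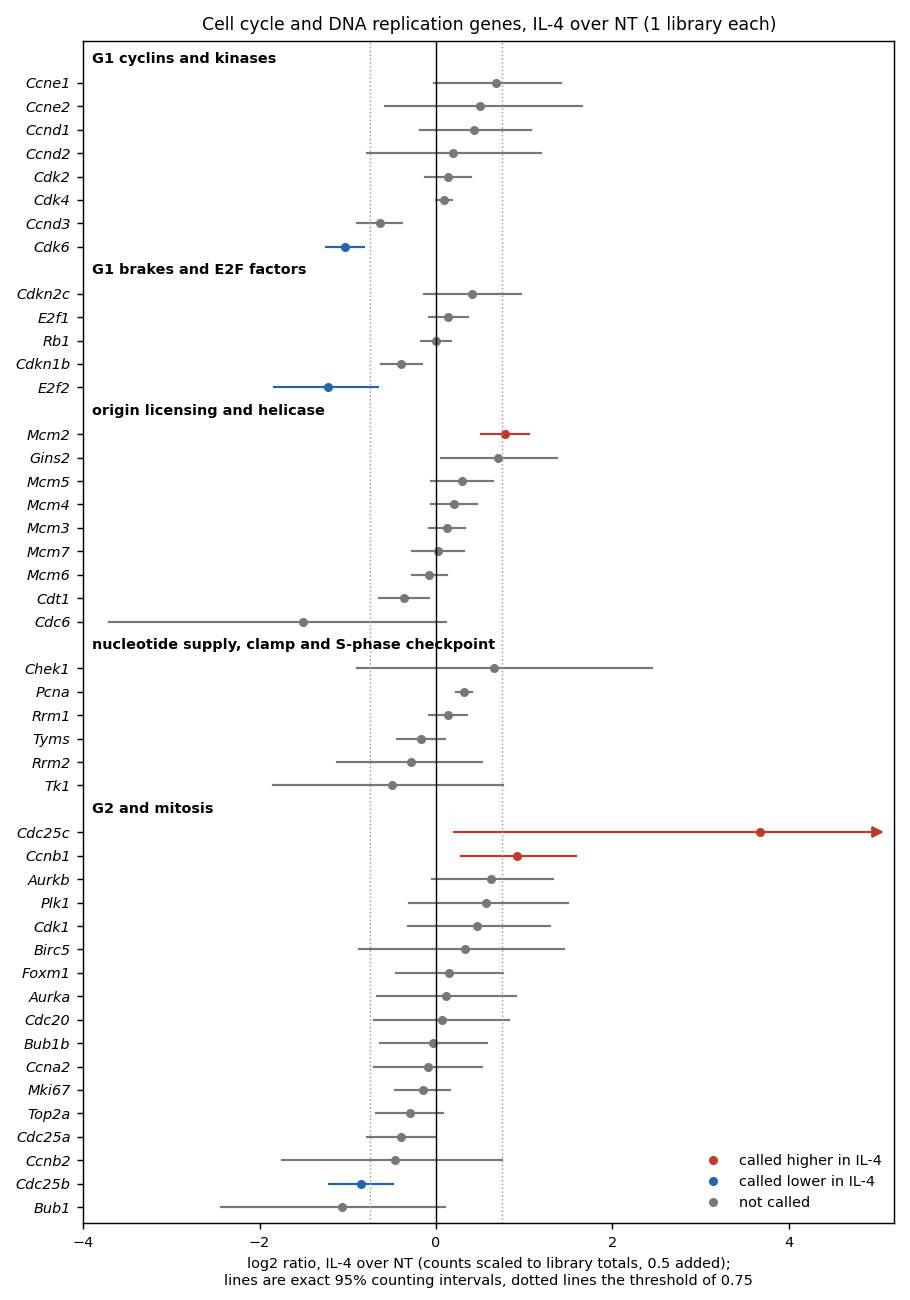
Log2 ratio of IL-4 over NT for each of the 45 genes, grouped by role, with exact 95% counting intervals as lines and the threshold of 0.75 as dotted lines; each point compares 1 library with 1 library. Of the points, 3 are called higher (red) and 3 lower (blue), the intervals of the least abundant genes are wide, and the arrow on Cdc25c marks an interval with no upper bound, its point being set by the 0.5 count added to each library.

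Levels per length of transcript spanned a wide range. Pcna, the sliding clamp of DNA polymerases, was the most abundant at 135 FPKM in NT and 168 FPKM in IL-4, followed by Cdk4 at 125 and 133 FPKM. Apart from these, no member exceeded 14.4 FPKM in either library. In the NT library 8 members were at or above 10 FPKM, 24 lay from 1 to under 10 FPKM and 13 were under 1 FPKM. The corresponding numbers in the IL-4 library were 7, 29 and 9. The median level over the 45 genes was 1.62 FPKM in NT and 2.06 FPKM in IL-4, below the medians of 5.12 and 4.86 FPKM over all listed genes. Proliferation markers were low, with Mki67 at 1.62 and 1.46 FPKM and Top2a at 2.23 and 1.82 FPKM. Of the 45 genes, 18 had under 50 counts in both libraries, and the median width of their intervals was 1.80 on the log2 scale, against 0.55 for the other 27. A change of less than about the threshold was therefore not detectable at this depth in most of the 18.

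**Figure D2:**
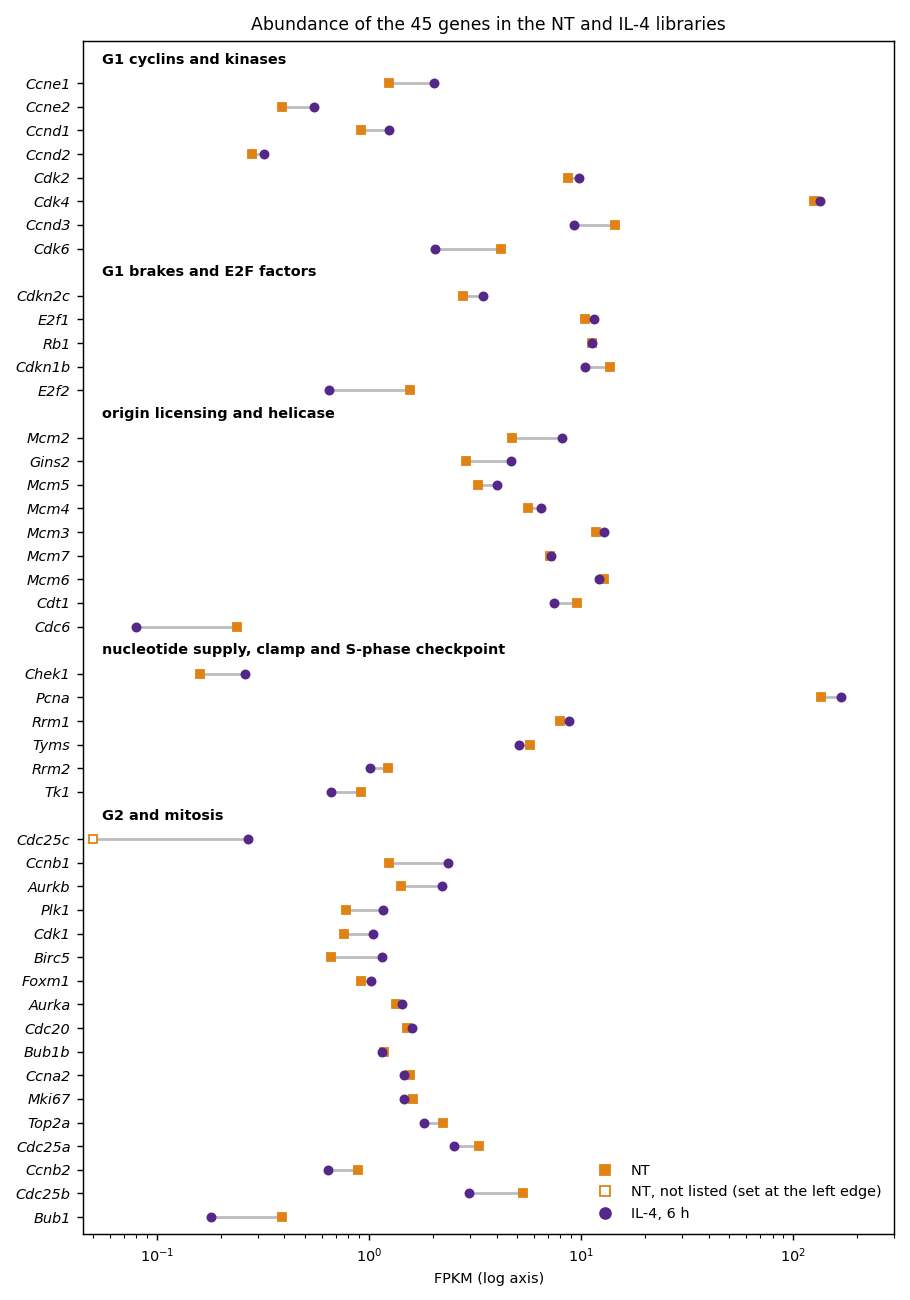
Abundance of each gene in FPKM on a log axis, in the NT library (squares) and the IL-4 library (circles), grouped by role and in the order of the log2 ratio. Pcna and Cdk4 lie above 100 FPKM in both libraries, most mitotic genes lie near 1 to 2 FPKM, and Cdc25c, not listed in NT, is drawn as an open square at the left edge.

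Among the G1 cyclins and their kinases, Cdk6 fell and Ccnd3 was lower without reaching the threshold. Cdk6 (chromosome 5, 3341004 to 3531008, GRCm38) encodes a kinase that pairs with D-type cyclins. It had 542.68 expected counts in NT and 271.26 in IL-4, or 4.20 and 2.06 FPKM. The IL-4 level was thus lower by 2.04-fold (log2 ratio -1.03, interval -1.25 to -0.82). The exact binomial test gave p = 6.14e-23 (BH-adjusted 1.21e-21). Its fractional counts show that some reads were divided with other transcripts. At 11534 bases its transcript was the longest of the 45, and long transcripts tended to be lower upon IL-4. The genes nearest to it in length had a median ratio of -0.55. With this trend subtracted the Cdk6 ratio was -0.48, with an interval from -0.70 to -0.27, and the call was lost. Cdk4, the partner kinase with an overlapping role, had 1868 and 2031 counts (log2 ratio 0.09, interval 0.00 to 0.18). Cdk6 made up 22.5% of the counts of both kinases in NT (95% interval 20.9 to 24.2) and 11.8% in IL-4 (10.5 to 13.2). Per length, it was 3.25% and 1.52% of their summed FPKM, so Cdk4 predominated in both libraries. These shares were not corrected for the length trend, which was -0.55 at the length of Cdk6 and 0.18 at that of Cdk4.

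The 3 D-type cyclins, which carry mitogen signals to these kinases, had separate values. Ccnd3 was the most abundant at 14.4 FPKM in NT and 9.28 FPKM in IL-4. Its counts were 317 and 208 (log2 ratio -0.63, interval -0.90 to -0.38), which excluded 0 and reached past the threshold. The exact binomial p was 7.44e-07 (BH-adjusted 5.03e-06). It was not called at the main threshold, but it was called lower at a fold change over 1.5 or with the length trend subtracted (-0.75). Ccnd1 had 39 and 54 counts (log2 ratio 0.44) and Ccnd2 had 18 and 21 counts (log2 ratio 0.19), with intervals that included 0. Ccnd3 made up 84.8% of the counts of the D-type cyclins in NT (80.7 to 88.2) and 73.5% in IL-4 (68.0 to 78.5), and these intervals did not overlap. Cyclin E, which activates Cdk2 at the start of S phase, was scarce. Ccne1 had 28 counts in NT and 46 in IL-4 (log2 ratio 0.68, interval -0.02 to 1.42), and Ccne2 had 13 and 19 counts (log2 ratio 0.50, interval -0.57 to 1.66). Cdk2 itself had 233 and 262 counts, a log2 ratio of 0.14.

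Of the G1 brakes and the E2F factors, E2f2 was the one gene called. E2f2 (chromosome 4, 136172274 to 136196057) encodes an activating E2F factor. It fell from 83 to 36 counts, or from 1.56 to 0.65 FPKM, which was 2.33-fold. Its log2 ratio was -1.22 (interval -1.84 to -0.65), and the exact binomial test gave p = 1.22e-05 (BH-adjusted 7.12e-05). With the length trend subtracted the ratio was -1.04 and the call remained. E2f1, the related activator, was more abundant at 10.46 and 11.53 FPKM, with 313.21 and 352.06 counts and a log2 ratio of 0.14 (interval -0.08 to 0.37). The share of E2f2 in the counts of both was 20.9% in NT (17.1 to 25.3) and 9.28% in IL-4 (6.58 to 12.6). Other E2F genes were left out of this share. Rb1, which encodes the Rb protein, had 581 and 593 counts (log2 ratio 0.00, interval -0.17 to 0.17). Cdkn1b, which encodes the kinase inhibitor p27, had 364 and 283 counts (log2 ratio -0.39, interval -0.62 to -0.16). This excluded 0 but lay wholly within the threshold. Cdkn2c, which encodes p18, an inhibitor of Cdk4 and Cdk6, had 51 and 69 counts (log2 ratio 0.40, interval -0.13 to 0.96).

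In origin licensing, Mcm2 rose while the other 5 subunits of its complex differed by less. Mcm2 (chromosome 6, 88883474 to 88898780) encodes a subunit of the replicative helicase. It rose from 177 to 310 counts, or from 4.71 to 8.09 FPKM, which was 1.72-fold. The log2 ratio was 0.78 with an interval of 0.51 to 1.06 that spanned the threshold, and the exact binomial p was 6.36e-09 (BH-adjusted 5.47e-08). Mcm3 had 376 and 419 counts, Mcm4 225 and 264, Mcm5 123.97 and 155.30, Mcm6 426 and 412, and Mcm7 189 and 196. None of these 5 was called, and their log2 ratios ran from -0.08 for Mcm6 to 0.30 for Mcm5. Summed, the 5 had a log2 ratio of 0.08 (interval -0.03 to 0.19), which did not overlap that of Mcm2. Mcm2 made up 11.7% of the counts of the hexamer genes in NT (10.1 to 13.4) and 17.7% in IL-4 (15.9 to 19.5). Gins2, part of the GINS complex that joins the helicase, had 33 and 55 counts (log2 ratio 0.70, interval 0.06 to 1.38), just under the threshold. The loaders had ratios below 0. Cdt1 had 238 and 189 counts (log2 ratio -0.36, interval -0.64 to -0.08), and Cdc6 had 12 and 4 counts (log2 ratio -1.50, interval -3.70 to 0.11). Neither was called.

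No gene of the group that supplies nucleotides, clamps the polymerase or guards S phase was called. Pcna had 1854 counts in NT and 2355 in IL-4 (log2 ratio 0.32, interval 0.23 to 0.41). Its exact binomial p was 1.32e-12 (BH-adjusted 1.49e-11), but the ratio was under the threshold, and it was 0.14 once the median of genes of like length was subtracted. Rrm1, the large subunit of ribonucleotide reductase, had 355 and 398 counts (log2 ratio 0.14), whereas Rrm2, the subunit that limits the enzyme in S phase, had 30 and 25 (log2 ratio -0.29, interval -1.12 to 0.52). Tyms, which makes thymidylate, had 243.11 and 219.88 counts (log2 ratio -0.17), and Tk1, the S-phase thymidine kinase, had 14 and 10 (log2 ratio -0.49). Chek1, the checkpoint kinase of stalled forks, had 6 and 10 counts (log2 ratio 0.66, interval -0.89 to 2.45). For the 15 genes of licensing and S phase together, the summed counts were 4302 in NT and 5022 in IL-4 (log2 ratio 0.20, interval 0.14 to 0.25). Without Pcna the counts were 2448 and 2667 (log2 ratio 0.10, interval 0.02 to 0.18). Mcm2 alone had 177 and 310 of these counts, the larger part of that rise. With the length trend subtracted the ratio over all 15 was 0.12.

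The 17 genes of G2 and mitosis were low in both libraries, and 2 were called higher and 1 lower. Ccnb1 (chromosome 13, 100778739 to 100786486) encodes cyclin B1, the partner of Cdk1 at the entry to mitosis. It rose from 32 to 62 counts, or from 1.25 to 2.37 FPKM, which was 1.89-fold. The log2 ratio was 0.92 (interval 0.29 to 1.59), and the exact binomial p was 0.0035 (BH-adjusted 0.0131). Ccnb2, the other B-type cyclin, had 15 and 11 counts (log2 ratio -0.46, interval -1.74 to 0.75). Ccna2, cyclin A2, had 49 and 47 counts (log2 ratio -0.09), and Cdk1 had 24 and 34 (log2 ratio 0.47). Neither differed beyond counting error.

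The Cdc25 phosphatases, which remove the inhibitory phosphates of the kinases, gave calls in opposite directions. Cdc25b (chromosome 2, 131186436 to 131198511) fell from 180 to 102 counts, or from 5.32 to 2.96 FPKM, which was 1.80-fold. Its log2 ratio was -0.84 (interval -1.21 to -0.49), and the exact binomial p was 1.81e-06 (BH-adjusted 1.16e-05). Cdc25a had 134 and 104 counts (log2 ratio -0.39, interval -0.78 to -0.01), and was not called. Cdc25c was not listed in NT and had 6 counts in IL-4. Set against a floor of 3 counts in the NT library, the 6 observed counts were 1.96-fold higher, with their own counting error left out. The exact interval of the Cdc25c ratio, which includes that error, began lower, at 0.21 on the log2 scale, and was open above. The exact binomial p was 0.0331 (BH-adjusted 0.0925). This call rests on 6 reads.

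The other mitotic genes were not called. Plk1, Aurka and Aurkb, the mitotic kinases, had 19 and 29, 28 and 31, and 31 and 49 counts, with log2 ratios of 0.57, 0.12 and 0.62. Bub1 and Bub1b of the spindle checkpoint had 19 and 9, and 48 and 48 counts, with log2 ratios of -1.07 and -0.03. The ratio of Bub1 was past the threshold in size, but its interval from -2.43 to 0.11 included 0. Cdc20, which activates the anaphase ubiquitin ligase, had 30 and 32 counts (log2 ratio 0.06). Birc5, which encodes survivin, had 12.52 and 16.16 counts (log2 ratio 0.33). Foxm1, the transcription factor of mitotic genes, had 45 and 51 counts (log2 ratio 0.15). The intervals of these 3 genes included 0. Top2a, the topoisomerase that untangles chromosomes, had 130 and 108 counts (log2 ratio -0.29, interval -0.68 to 0.08). Mki67, which encodes the proliferation antigen Ki-67, had 183 and 168 counts (log2 ratio -0.15, interval -0.46 to 0.16). Its transcript of 10098 bases was the second longest, and with the length trend subtracted the ratio was 0.35, of the opposite sign. Summed over the 17 genes, the counts were 980 in NT and 907 in IL-4 (log2 ratio -0.14, interval -0.27 to -0.01). Cdc25b alone had 180 of these counts in NT and 102 in IL-4. After scaling, this gene made up most of the fall in the sum. With the length trend subtracted gene by gene the log2 ratio of the sum was -0.02, so little of the difference was left. The summed fibroblast markers had a log2 ratio of -0.24 (interval -0.34 to -0.15), not corrected for length. The median ratio of these 5 markers was -0.36, and -0.13 with the length trend subtracted. Their part in the mitotic sum was not tested.

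**Figure D3:**
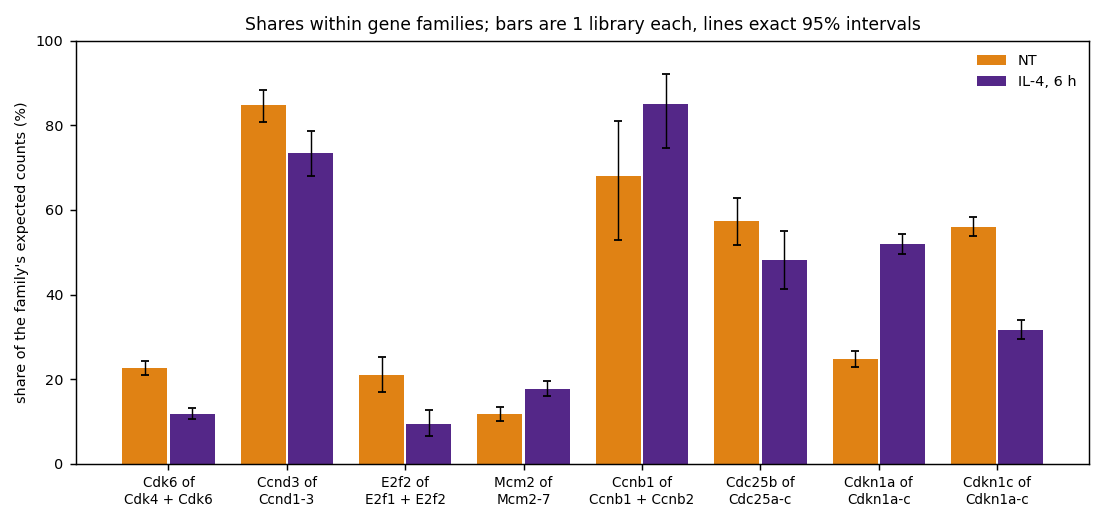
Share of a gene in the expected counts of its family, in percent, in the NT (orange) and IL-4 (purple) libraries; bars are single libraries and lines exact 95% intervals. For E2f2 the family is E2f1 and E2f2 only, and other E2F genes are left out. Shares are not corrected for the length trend. The shares of Cdk6, Ccnd3, E2f2 and Cdkn1c are lower in IL-4 and those of Mcm2 and Cdkn1a higher with intervals that do not overlap, whereas those of Ccnb1 and Cdc25b overlap.

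The start regions of the called genes are shown because cell cycle genes are grouped by short elements there: the CHR element (TTTGAA) that DREAM and B-Myb complexes use, E2F sites (searched as TTCCCGC or TTGGCGC) and the NF-Y box (CCAAT). Windows of 250 bases before to 50 bases after an annotated start were read from RefSeq on GRCm38.p6, where 35 of the 45 genes had one, and both strands were searched. The 5 windows below belong to the called genes with at least 50 counts in 1 library, are written 5′ to 3′ along the gene, and carry matches in capitals.
Mcm2 (chr6:88898731-88899030, minus strand): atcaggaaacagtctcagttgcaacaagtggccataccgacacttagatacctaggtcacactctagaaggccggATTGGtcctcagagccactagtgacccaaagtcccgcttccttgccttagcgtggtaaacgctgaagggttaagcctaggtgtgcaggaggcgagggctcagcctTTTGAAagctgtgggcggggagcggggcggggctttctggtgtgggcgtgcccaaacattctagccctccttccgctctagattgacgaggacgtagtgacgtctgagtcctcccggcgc
Ccnb1 (chr13:100786437-100786736, minus strand): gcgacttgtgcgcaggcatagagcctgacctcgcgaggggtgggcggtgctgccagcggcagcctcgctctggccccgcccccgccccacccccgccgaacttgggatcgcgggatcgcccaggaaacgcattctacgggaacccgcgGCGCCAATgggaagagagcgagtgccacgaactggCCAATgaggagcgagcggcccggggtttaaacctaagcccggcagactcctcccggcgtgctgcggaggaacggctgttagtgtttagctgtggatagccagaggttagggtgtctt
E2f2 (chr4:136172024-136172323, plus strand): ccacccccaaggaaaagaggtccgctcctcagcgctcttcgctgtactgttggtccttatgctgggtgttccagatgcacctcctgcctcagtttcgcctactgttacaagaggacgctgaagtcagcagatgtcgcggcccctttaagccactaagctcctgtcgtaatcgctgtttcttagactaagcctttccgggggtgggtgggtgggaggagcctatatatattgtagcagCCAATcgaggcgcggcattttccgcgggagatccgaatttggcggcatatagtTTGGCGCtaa
Cdc25b (chr2:131186698-131186997, plus strand): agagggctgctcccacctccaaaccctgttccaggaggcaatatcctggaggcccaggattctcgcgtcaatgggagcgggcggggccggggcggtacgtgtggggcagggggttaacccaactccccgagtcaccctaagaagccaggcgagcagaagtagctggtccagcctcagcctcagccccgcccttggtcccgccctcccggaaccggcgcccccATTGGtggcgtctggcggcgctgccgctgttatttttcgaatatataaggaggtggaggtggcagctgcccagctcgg
Cdk6 (chr5:3343643-3343942, plus strand): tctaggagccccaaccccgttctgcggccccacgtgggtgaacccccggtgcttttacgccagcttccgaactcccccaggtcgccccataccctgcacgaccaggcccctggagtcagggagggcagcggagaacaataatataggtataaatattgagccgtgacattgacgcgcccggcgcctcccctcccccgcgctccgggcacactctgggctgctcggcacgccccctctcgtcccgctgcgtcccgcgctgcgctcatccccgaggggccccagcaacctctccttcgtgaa
In Mcm2 a CHR lay 70 bases and a reversed CCAAT 175 bases before the start. Ccnb1 had CCAAT boxes 99 and 67 bases before the start, the first overlapping a reversed E2F match, and no CHR in these letters. E2f2 had a CCAAT 13 bases before and an E2F match 40 bases after the start, with CHR letters only in a second window that is not shown, Cdc25b a reversed CCAAT 28 bases before it, and the Cdk6 window held none of these letters. The printed Cdk6 and Cdc25b windows lie inside the gene coordinates given above, so the outer starts of these genes were not searched. A match is a description of sequence and not a site of binding.

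Over all genes with windows, any window counted, the mitotic group held CHR letters in 8 of 13 genes, against 20.2% of all genes. Among the licensing genes, 6 of 7 held an E2F match, against 7.79% of all genes. CCAAT was in 25 of the 35 cell cycle genes and in 41.1% of all genes. The CHR windows of the mitotic genes are shown, since the letters were found in most of this group. Each is 26 bases, oriented so that the element reads TTTGAA. Bub1b, the other gene with a match, had it at the edge of its window.
Ccnb2 (chr9:70421535-70421560, minus strand): cggcgcggtaTTTGAAtcgcggaccg
Cdk1 (chr10:69352912-69352937, minus strand): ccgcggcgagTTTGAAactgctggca
Cdc20 (chr4:118437346-118437371, minus strand): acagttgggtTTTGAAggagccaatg
Plk1 (chr7:122159455-122159480, plus strand): cagcgccgcgTTTGAAttcggggagg
Aurka (chr2:172370523-172370548, minus strand): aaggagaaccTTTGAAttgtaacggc
Top2a (chr11:99024197-99024222, plus strand): cctagtttcaTTTGAAcctttatcta
Mki67 (chr7:135716462-135716487, minus strand): gccgttttggTTTGAAtcgggcgggc
The elements lay within 32 bases of an annotated start except in Mki67, where it was 98 bases before one. Distances are to the start of the window with the match. That start can lie inside the gene, as in Aurka and Mki67, and is then not its outer start. The 10 cell cycle genes with CHR letters had a median log2 ratio of 0.02, and the 25 without had 0.02. Calls were 1 higher (Mcm2) and 1 lower (E2f2) among the 10, and 1 higher and 2 lower among the 25. The 15 with an E2F match had a median of 0.13, and the 20 without had -0.10. For E2F, calls were 1 higher and 1 lower among the 15, and 1 higher and 2 lower among the 20. Of all genes tested, 4.07% were called higher and 6.28% lower. Calls this few do not set genes with and without a match apart.

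Beyond the 45 genes, 127 other genes of the cell cycle were examined, of which 6 were called higher and 5 lower (8.66%), under the 10.4% of all genes tested. Of 46 other replication genes, 3 were called higher and 1 lower, and their median log2 ratio was 0.04. The largest was Dut, which encodes the dUTPase that keeps uracil out of DNA, with 31 and 89 counts and a log2 ratio of 1.48 (interval 0.89 to 2.13). Dck, the deoxycytidine kinase that salvages nucleosides, rose from 161 to 335 counts, by 1.03 on the log2 scale (interval 0.75 to 1.31). Of 48 other mitotic genes, 1 was called higher and 3 lower, with a median log2 ratio of -0.10. Cks1b, a subunit of cyclin-dependent kinases, rose from 30 to 58.8 counts (log2 ratio 0.93), and Racgap1, a regulator of cytokinesis, fell from 110 to 60.0 counts (log2 ratio -0.90). Of 33 other brakes, pocket proteins and E2F genes, 2 were called higher and 1 lower, with a median of 0.00.

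Within that list, the kinase inhibitors p21 and p57 moved in opposite directions. Cdkn1a, which encodes p21, rose from 465 to 900 counts, or from 22.03 to 41.84 FPKM (log2 ratio 0.92, interval 0.76 to 1.09). Cdkn1c, which encodes p57, fell from 1055 to 549 counts, or from 49.9 to 25.5 FPKM (log2 ratio -0.97, interval -1.12 to -0.82). The exact binomial test gave BH-adjusted values of 3.55e-29 and 1.10e-37. Neither Cdkn1a nor Cdkn1c was called where a log2 ratio of 1 in size was required. With Cdkn1b, these genes make up the family of inhibitors that bind cyclin and kinase together. Their summed level was 85.6 FPKM in NT and 77.7 FPKM in IL-4. Cdkn1c held 56.0% of their counts in NT (53.7 to 58.3) and 31.7% in IL-4 (29.5 to 34.0), while Cdkn1a held 24.7% (22.7 to 26.7) and 52.0% (49.6 to 54.3).

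**Figure D4:**
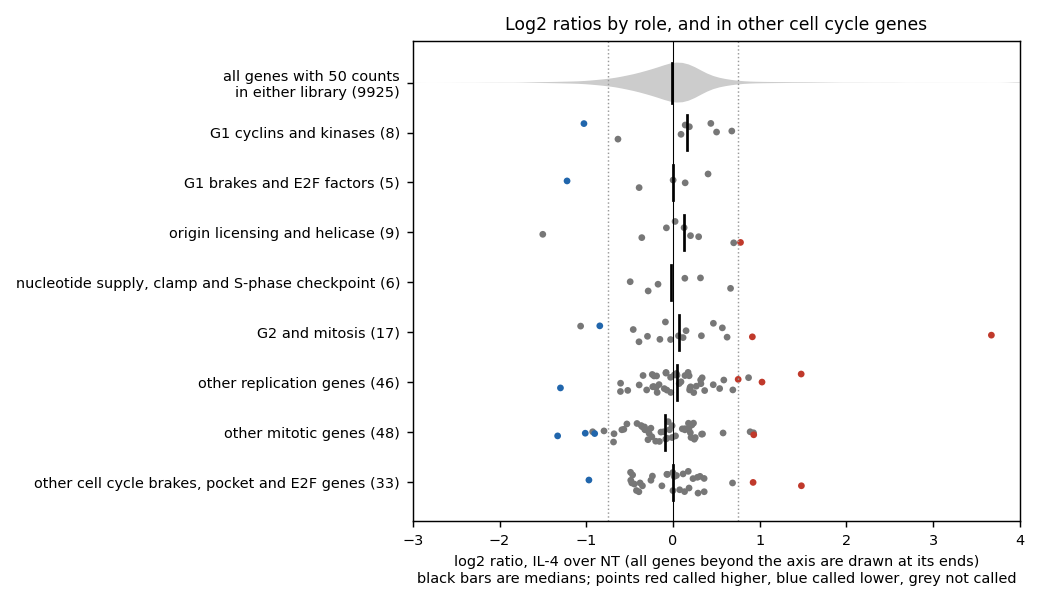
Log2 ratios of IL-4 over NT for the 45 genes by role and for 127 other cell cycle genes in 3 lists (points, red called higher, blue called lower), below the distribution over 9925 genes with at least 50 counts in either library (grey); black bars are medians and dotted lines the threshold. The list medians lie between -0.10 and 0.17, close to the median of -0.01 over the 9925 genes.

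The log2 ratio fell with transcript length across 8463 genes with at least 200 reads (Spearman -0.45 across genes, which are not independent replicates). With the median of the genes nearest in length subtracted, 3 members were again called higher (Mcm2, Ccnb1 and Cdc25c) and 3 lower, with Ccnd3 in place of Cdk6. Over all genes this gave 4.07% called higher and 4.84% lower. With 1 library per group, a trend that belongs to 1 library and an effect of IL-4 cannot be told apart.

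The calls also turned on the threshold and on the variation assumed between animals. Where a log2 ratio of 1 and an adjusted p of 0.05 were required, 0 members were called higher (2.62% of all genes) and 2 lower (Cdk6 and E2f2; 3.05% of all genes). With a biological coefficient of variation set to 0.2, edgeR's exact test called 0 members higher (2.5% of all genes) and 2 lower (2.71%), and with 0.4 it called 0 higher (0.417%) and 0 lower (0.0513%). On the scale of log2(FPKM + 1), 0 were called higher (2.51%) and 1 lower (Cdk6; 2.56%).

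**Figure D5:**
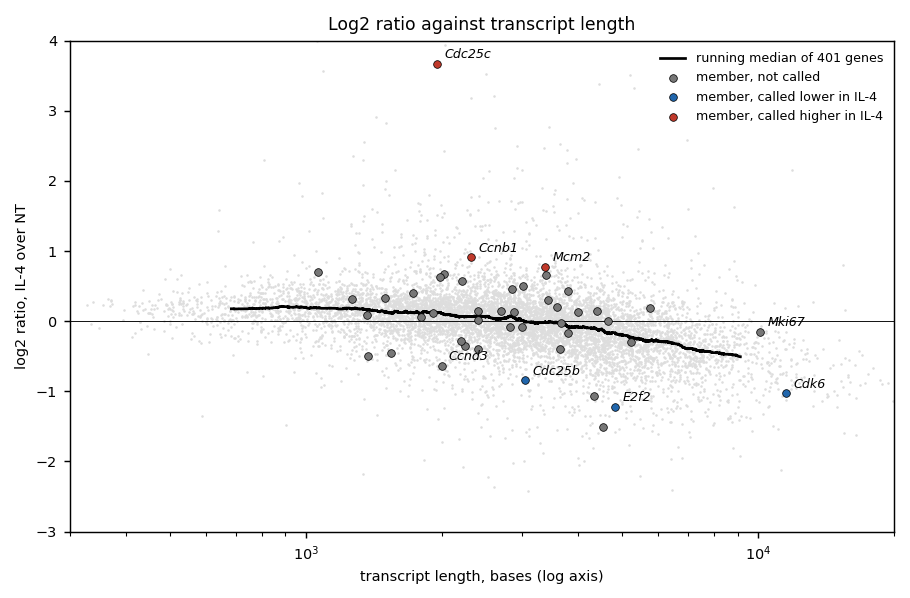
Log2 ratio of IL-4 over NT against transcript length in bases (log axis) for genes with at least 200 reads (grey), their running median (black line) and the 45 genes (circles, coloured by call). The running median declines with length, Cdk6 and Mki67 have the longest transcripts of the 45, and Mcm2, Ccnb1, E2f2 and Cdc25b lie away from the line.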

How the data were processed

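RNA of 1 NT and 1 IL-4 sample, grouped by their titles, was sequenced by HiSeq with Illumina protocols. The authors used Bowtie for mapping to GRCm38/mm10 and RSEM for quantification, in versions not given in the sources used here. The deposited expected counts are not scaled for depth. Deposited FPKM values are scaled for length and depth. Another deposited column gives transcript length in bases and served for the length trend. Gene numbers were matched to symbols with the RefSeq table for GRCm38.p6 (15587 of 15623 matched, among them all 45 members), and a gene absent from a table was set to 0.

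Log2 ratios used counts scaled to library totals with 0.5 added. Expected counts were rounded and 15593 genes were tested by an exact conditional binomial test (two-sided) with BH adjustment over all of them. The other 30 genes, at 0 after rounding, were not tested. With 1 sample per group no quasi-likelihood fit was possible, so p-values compare libraries only. The floor was 3 counts, or 0.272 CPM in NT and 0.267 CPM in IL-4. Of the 45 members, 40 had whole counts and 5 fractional ones. The procedure was tested on simulated data with counting error only, in which well-counted genes were changed by larger folds than most called members. That test says nothing of variation between animals or of genes with few counts. One list of cell type markers is not reported here. All members are reported, and of each other list at most 3 called genes with at least 50 counts are named. The members and lists were chosen with earlier results of these data known. Alternatives were TMM (edgeR 4.0.16) and median-of-ratios (DESeq2 1.42.0) scaling, totals without the 100 most abundant genes, a length trend over the 200 genes nearest in length, FPKM with 0.1 or 1 added, other thresholds, a minimum of 10 counts, and edgeR's exact test under a biological coefficient of variation set to 0.2 or 0.4. Python 3.11.15, scipy 1.17.1 and R 4.3.3 were used.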

Additional observations from a re-analysis of the deposited data

How the results depend on the processing

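No paired analysis was possible because NT and IL-4 are single libraries. The main values were 3 members called higher, 3 called lower, 11 other cell cycle genes called, and a median log2 ratio of 0.12. With the thresholds raised to a log2 ratio of 1 and an adjusted p of 0.05, the numbers were 0 higher and 3 other genes (5.67% of all genes called). Cdk6 and E2f2 stayed called, whereas Cdkn1a and Cdkn1c did not. With the edgeR exact test and an assumed biological coefficient of variation of 0.2 the numbers were 0 higher and 3 others (5.21% of all genes). With 0.4 they were 0 higher, 0 lower and 0 others (0.468% of all genes). FPKM with 1 added, which shrinks the ratios of genes of low FPKM, gave 0 higher, 1 lower and 6 others (5.07% of all genes). The summed ratio of the replication members was 0.12 with the length trend subtracted, against 0.20, and that of the mitotic members was -0.02, against -0.14. The sign of the replication sum, that of the mitotic sum and that of the median were kept under every scaling run and with the length trend subtracted, and the other scalings shifted each ratio by at most 0.04 in size. Over the 45 members and 6 other named genes, 567 pairs of gene and alternative gave the main call, 35 lost it and 2 gained one. Both gains were Ccnd3. The 567 include pairs of uncalled genes that stayed uncalled. Of the called members, Cdc25c lost its call under 5 of 11 alternatives, and Mcm2, Ccnb1 and Cdc25b under 4 of 12 each. E2f2 lost it under 2 of 12 and Cdk6 under 2 of 11. A minimum of 10 counts removed Cdc25c from the test. Cdc25c also lost its call where a 1.5-fold change and an adjusted p of 0.05 were required. The use of genes with whole counts alone was chosen after seeing the data and changed no call among the genes it kept, but it leaves out Cdk6. The cause of these changes was not tested. Depth limits the 18 members with under 50 counts in both libraries.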

Other observations

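The deposited tables weight the length of a gene over its transcripts, and this length differed by over 1% between the libraries for 6 of the 45 genes. Birc5 had a length of 1719 bases in NT and 1262 bases in IL-4, so its FPKM was 0.66 and 1.15 although its expected counts were only 12.52 and 16.16. Cdkn2c had 1662 bases in NT and 1786 bases in IL-4. E2f2 had 4775 and 4866 bases, and Cdk2 had 2421 and 2369 bases. Tk1 had 1389 and 1357 bases, on 14 and 10 counts. Aurka had 1897 and 1925 bases, on 28 and 31 counts. The transcripts behind these lengths were not analysed here, and the counts behind the lengths of Birc5, Tk1 and Aurka are few.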
